A study of Mus with 12 samples.

Results

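The interferon-stimulated genes described here are 35 genes known to be induced by type I or type II interferon, taken from the Clariom S mouse expression array by gene symbol, with the probe set of highest mean signal where a gene had several. A probe set was present for 34 of the 35, each gene having only 1, among 19505 genes in all. Ifi44 had no probe set under that symbol and has no value here. The arrays read kidney RNA of 12 male C57Bl/6j mice of 6 months in 4 groups of 3: Apobec1 knockout (KO) mice 3 days after 15 mg/kg cisplatin (KO AKI, for acute kidney injury), wild type (WT) mice given the same cisplatin dose (WT AKI), KO mice given saline (KO control) and WT mice given saline (WT control). The KO mice lack Apobec1, which encodes an RNA-editing cytidine deaminase, in every cell. They were backcrossed to C57BL6J. By the labels they were raised in house while the C57Bl/6j mice were bought, and on that account genotype and origin of the animals cannot be told apart. All p-values measure the spread between these arrays.

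Cells that bind interferon signal through Janus kinases to transcription factors, and STAT2 and IRF9 work together in switching on antiviral genes. IRF1 is a further factor induced by interferon. The genes switched on include sensors of foreign RNA, enzymes that block translation or degrade RNA, GTPases and membrane proteins that hold back viruses, and feedback regulators such as USP18. In the injured kidney the same programme can run without a virus, since RNA and DNA released by damaged cells can engage sensors of RNA and of DNA.

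Values are the deposited log2 signals, so a difference of 1 is a doubling. A gene was counted as above background on an array where its signal exceeded the background, which is the value that 95% of the 23 antigenomic probe sets (probes with no target in the mouse genome) do not exceed on that array. Of the 34 measured genes, 13 were above background on all 12 arrays and 8 on none (Irf8, Dhx58, Oas1a, Oas2, Oas3, Oasl1, Isg15 and Mx1). Differences of those 8 are differences between dim signals, and no fold is given for them. Groups were compared in 1 limma fit over the 4 groups, with Benjamini-Hochberg adjustment over all 19505 genes, and a gene was called at an adjusted p under 0.05. Array medians lay between 5.79 and 6.00 and backgrounds between 6.15 and 6.52. Arrays of a group correlated at 0.990 to 0.993 in WT AKI, KO control and WT control, and at 0.962 to 0.986 in KO AKI. Apobec1 itself gave log2 signals of 7.33 to 9.75 on KO AKI, 8.38 to 8.97 on WT AKI, 7.5 to 7.66 on KO control and 6.63 to 7.33 on WT control arrays. Which part of the transcript its probe set reads is not known, so this signal does not check the genotype, and KO stands for the arrays with that label.

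Cisplatin raised some interferon-stimulated genes in KO kidneys. In KO AKI against KO control, 10 of the 34 genes rose, against 15.4% of all genes, and 1, Rsad2, fell, against 12.6%. The log2 difference was positive for 28 of 34, with a median of 0.48 against 0.057 over all genes. The total of 11 was 7 when WT control 2 or 3, WT AKI 3 or KO control 1 was left out alone, and 7 also with median centring or with the WT arrays left out of the fit. More of them rose in WT kidneys. In WT AKI against WT control, 19 of the 34 genes rose and 0 fell, against 8.63% of all genes that rose and 5.34% that fell. The log2 difference was positive for 33 of 34, with a median of 1.01 against 0.055 over all genes. Differences ran between -0.17 for Isg20 and 2.77 for Oasl2. The count was 11 without WT AKI replicate 1 and 12 without WT control replicate 3, and 33 of 34 differences were positive without WT AKI replicate 1. Nearly all of the KO rises were also WT rises: 9 genes rose in both genotypes (Bst2, Eif2ak2, Gbp7, Ifih1, Irf7, Mx2, Oasl2, Parp14 and Stat2), which is 90% of the KO rises and 47.4% of the WT rises.

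**Figure D1:**
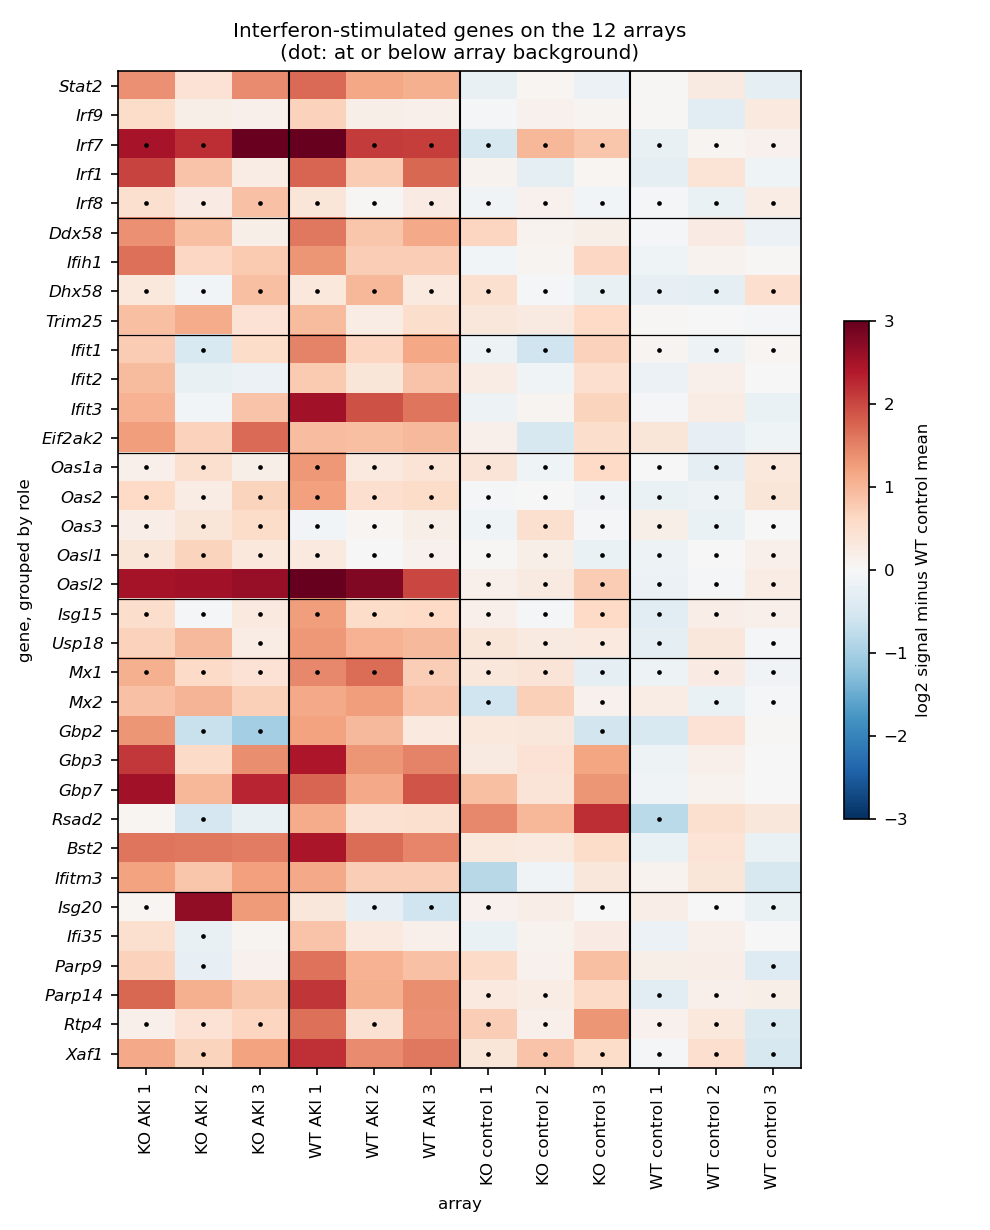
Log2 signal minus the WT control mean (colour scale from -3 to 3) for the 34 measured genes (rows, grouped by role) on the 12 arrays (columns, by group). A dot marks a signal at or below that array's background. Oasl2 and Irf7 are the darkest rows in both AKI groups, and Rsad2 is highest in KO control.

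Among the regulators, Stat2, a transcription factor of the type I interferon response, had log2 signals of 8.90, 7.98 and 8.94 in KO AKI and 9.22, 8.71 and 8.59 in WT AKI, against 7.31, 7.60 and 7.37 in KO control and 7.56, 7.8 and 7.24 in WT control. Every AKI array lay above every control array. Stat2 rose 2.27-fold in KO kidneys (log2 difference 1.18, SE 0.27, adjusted p = 0.00613, limma) and 2.47-fold in WT kidneys (1.31, SE 0.27, adjusted p = 0.00732). The 2 rises differed by -0.12, with a 95% interval of -0.95 to 0.71.

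Irf7, the factor that amplifies interferon production, had log2 signals of 6.02, 5.76 and 6.51 in KO AKI and 7.0, 5.65 and 5.62 in WT AKI, against 3.06, 4.55 and 4.39 in KO control and 3.32, 3.64 and 3.69 in WT control. The AKI and control arrays did not overlap, but only 1 array of each AKI group was above background, so no fold is given. Irf7 rose by a log2 difference of 2.10 in KO kidneys (SE 0.41, adjusted p = 0.00233, limma) and of 2.54 in WT kidneys (SE 0.41, adjusted p = 0.00183). Irf1, a transcription factor induced by interferon, had signals of 9.71, 8.54 and 7.91 in KO AKI and 9.44, 8.46 and 9.42 in WT AKI, against 7.79, 7.39 and 7.75 in KO control and 7.41, 8.10 and 7.55 in WT control. It rose 2.67-fold in WT kidneys (log2 difference 1.42, SE 0.39, adjusted p = 0.0300, limma; 0.109 without WT AKI replicate 1 and over 0.05 also without WT AKI replicate 3, WT control replicate 1 or WT control replicate 3), and its difference in KO kidneys was 1.08 (SE 0.39, adjusted p = 0.0561). The KO AKI arrays ranged widely, with replicate 3 near the controls.

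Irf9, a DNA-binding partner of STAT2, did not pass the test in any comparison. Its signals were 7.47, 7.10 and 7.06 in KO AKI and 7.59, 7.09 and 7.06 in WT AKI, against 6.86, 7.05 and 7.0 in KO control and 6.96, 6.57 and 7.21 in WT control. The difference was 0.24 in KO kidneys (SE 0.22, adjusted p = 0.453, limma) and 0.34 in WT kidneys (SE 0.22, adjusted p = 0.335). Irf8, a regulator of myeloid cell development, was below background on every array.

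The largest differences in both genotypes belonged to Oasl2, a member of the oligoadenylate synthetase family. Its log2 signals were 8.03, 8.06 and 8.15 in KO AKI and 9.07, 8.30 and 7.54 in WT AKI, against 5.68, 5.80 and 6.30 in KO control and 5.35, 5.49 and 5.75 in WT control. All AKI arrays were above background and none of the control arrays were. Oasl2 was therefore at least 3.31-fold higher in KO AKI than in KO control (measured log2 difference 2.15, SE 0.31, adjusted p = 0.000284, limma) and at least 4.20-fold higher in WT AKI than in WT control (2.77, SE 0.31, adjusted p = 0.00013). These bounds set the control signals at the arrays' background. The other 4 members of the family on the list, Oas1a, Oas2, Oas3 and the Oasl2 neighbour Oasl1, were below background on all 12 arrays. Of these Oas2 passed the test in WT kidneys (log2 difference 0.77, adjusted p = 0.0448, limma; 0.175 without WT AKI replicate 1).

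Among the inhibitors of viral translation, IFIT proteins bind viral RNA and EIF2AK2 (PKR) halts protein synthesis. Ifit3 signals were 10.34, 9.22 and 10.15 in KO AKI and 11.82, 11.21 and 10.89 in WT AKI, against 9.16, 9.37 and 9.96 in KO control and 9.27, 9.52 and 9.10 in WT control. The WT AKI arrays lay above all 9 others, and the KO AKI and KO control arrays overlapped. Ifit3 rose 4.03-fold in WT kidneys (log2 difference 2.01, SE 0.32, adjusted p = 0.00167, limma), and its difference in KO kidneys was 0.41 (SE 0.32, adjusted p = 0.372). Ifit2, which lies next to Ifit3 in the RefSeq gene order, and Ifit1 passed the test in neither genotype: Ifit2 differed by -0.03 in KO and 0.67 in WT kidneys, and Ifit1 by 0.31 in KO and 1.10 in WT kidneys (adjusted p = 0.0562 in WT, limma).

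Eif2ak2 had the larger difference in KO kidneys. Its signals were 9.86, 9.30 and 10.30 in KO AKI and 9.53, 9.49 and 9.58 in WT AKI, against 8.74, 8.13 and 9.13 in KO control and 8.97, 8.36 and 8.46 in WT control. It rose 2.23-fold in KO kidneys (log2 difference 1.16, SE 0.29, adjusted p = 0.010, limma) and 1.91-fold in WT kidneys (0.93, adjusted p = 0.0475; 0.144 without WT control replicate 2, and lost too when any other WT array or KO control replicate 1 was left out). The difference between the 2 rises was 0.22 (adjusted p = 0.899).

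The RNA sensors were a small and mixed set. Ifih1 (MDA5), a sensor of long double-stranded RNA, rose 1.77-fold in KO kidneys (log2 difference 0.82, adjusted p = 0.0450, limma; 0.167 without KO AKI replicate 1) and 1.90-fold in WT kidneys (0.93, adjusted p = 0.0445; 0.164 without WT AKI replicate 1). Its KO call was lost on leaving out any of 8 arrays and its WT call any of 8. Ddx58 (RIG-I), which senses RNA with a triphosphate end, rose 2.26-fold in WT kidneys (1.17, adjusted p = 0.0197; 0.0857 without WT AKI replicate 1, lost on leaving out any of 4 arrays) and differed by 0.51 in KO kidneys (adjusted p = 0.219). Trim25, the ubiquitin ligase that acts on RIG-I, differed by 0.41 in KO and 0.56 in WT kidneys and passed the test in neither. Dhx58 (LGP2) was below background throughout.

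Isg15, a ubiquitin-like modifier and one of the best known interferon-induced genes, was below background on all 12 arrays. Its signals were 4.96, 4.39 and 4.74 in KO AKI and 5.71, 5.01 and 5.03 in WT AKI, against 4.59, 4.41 and 5.04 in KO control and 4.10, 4.64 and 4.60 in WT control. Usp18, which removes ISG15 from proteins and dampens interferon receptor signalling, had signals of 6.57, 6.85 and 6.11 in KO AKI and 7.18, 6.93 and 6.85 in WT AKI, against 6.24, 6.16 and 6.17 in KO control and 5.58, 6.23 and 5.84 in WT control. It rose 2.15-fold in WT kidneys (log2 difference 1.10, SE 0.23, adjusted p = 0.00672, limma) and differed by 0.32 in KO kidneys (SE 0.23, adjusted p = 0.316). The KO arrays overlapped, and the WT arrays did not. Usp18 stands 12 protein-coding genes away from Apobec1 in the RefSeq gene order (GRCm38.p6).

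Of the 8 membrane and GTPase effectors, 4 rose and 1 fell in KO kidneys (15.4% and 12.6% of all genes), and 5 rose in WT kidneys (8.63% of all genes). Bst2 (tetherin), which holds budding virus particles on the cell surface, had signals of 9.20, 9.18 and 9.14 in KO AKI and 10.05, 9.28 and 9.06 in WT AKI, against 7.92, 7.91 and 8.15 in KO control and 7.40, 8.02 and 7.40 in WT control. No AKI array reached down to a control array. Bst2 rose 2.27-fold in KO kidneys (log2 difference 1.18, SE 0.25, adjusted p = 0.00421, limma) and 3.62-fold in WT kidneys (1.86, SE 0.25, adjusted p = 0.000577).

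The guanylate-binding proteins Gbp3 and Gbp7, GTPases that attack pathogen vacuoles, are neighbours in the RefSeq order. Gbp3 had signals of 8.91, 7.36 and 8.18 in KO AKI and 9.20, 8.12 and 8.27 in WT AKI, against 7.05, 7.22 and 7.96 in KO control and 6.64, 6.94 and 6.77 in WT control, and rose 3.35-fold in WT kidneys (log2 difference 1.75, SE 0.38, adjusted p = 0.0089, limma). Its difference in KO kidneys was 0.74 (adjusted p = 0.164), where KO AKI replicate 2 lay within the control range. Gbp7 had signals of 10.60, 9.06 and 10.37 in KO AKI and 9.83, 9.22 and 9.95 in WT AKI, against 8.99, 8.47 and 9.41 in KO control and 7.97, 8.17 and 8.08 in WT control. It rose 3.01-fold in WT kidneys (1.59, SE 0.36, adjusted p = 0.0112). In KO kidneys it was called at 2.08-fold (1.05, SE 0.36, adjusted p = 0.0424), although the KO groups overlapped and the call was lost on leaving out any of 9 arrays (adjusted p = 0.159 without KO control replicate 2). Gbp2 spread widely over the KO AKI arrays, with signals of 7.97, 5.97 and 5.63, and was called in none of the 5 comparisons. Members of this family are alike in sequence, so their probe sets may share signal.

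Ifitm3, which blocks virus entry at endosomes, was the 1 member called up in KO kidneys and not in WT kidneys. Its signals were 10.36, 9.98 and 10.36 in KO AKI and 10.27, 9.89 and 9.87 in WT AKI, against 8.32, 9.03 and 9.49 in KO control and 9.24, 9.51 and 8.67 in WT control. The AKI levels were close in both genotypes, and no control array reached them. The difference was 1.28 in KO kidneys (2.44-fold, SE 0.29, adjusted p = 0.00594, limma) and 0.87 in WT kidneys (SE 0.29, adjusted p = 0.0659), and the 2 differences were 0.42 apart (adjusted p = 0.781). Mx2 rose 1.73-fold in KO kidneys (0.79, adjusted p = 0.0474; 0.211 without KO control replicate 1, and lost on leaving out any of 11 arrays) and 2.12-fold in WT kidneys (1.08, adjusted p = 0.0210; 0.0734 without WT control replicate 2, lost on leaving out any of 4). Mx1 was below background on every array. It still passed the test in WT kidneys (log2 difference 1.28, adjusted p = 0.00884, limma), and this call was kept when any of the 12 arrays was left out. The Mx1 difference in KO kidneys was 0.55 (adjusted p = 0.154, limma). Mx1 and Mx2 both encode dynamin-like antiviral GTPases.

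**Figure D2:**
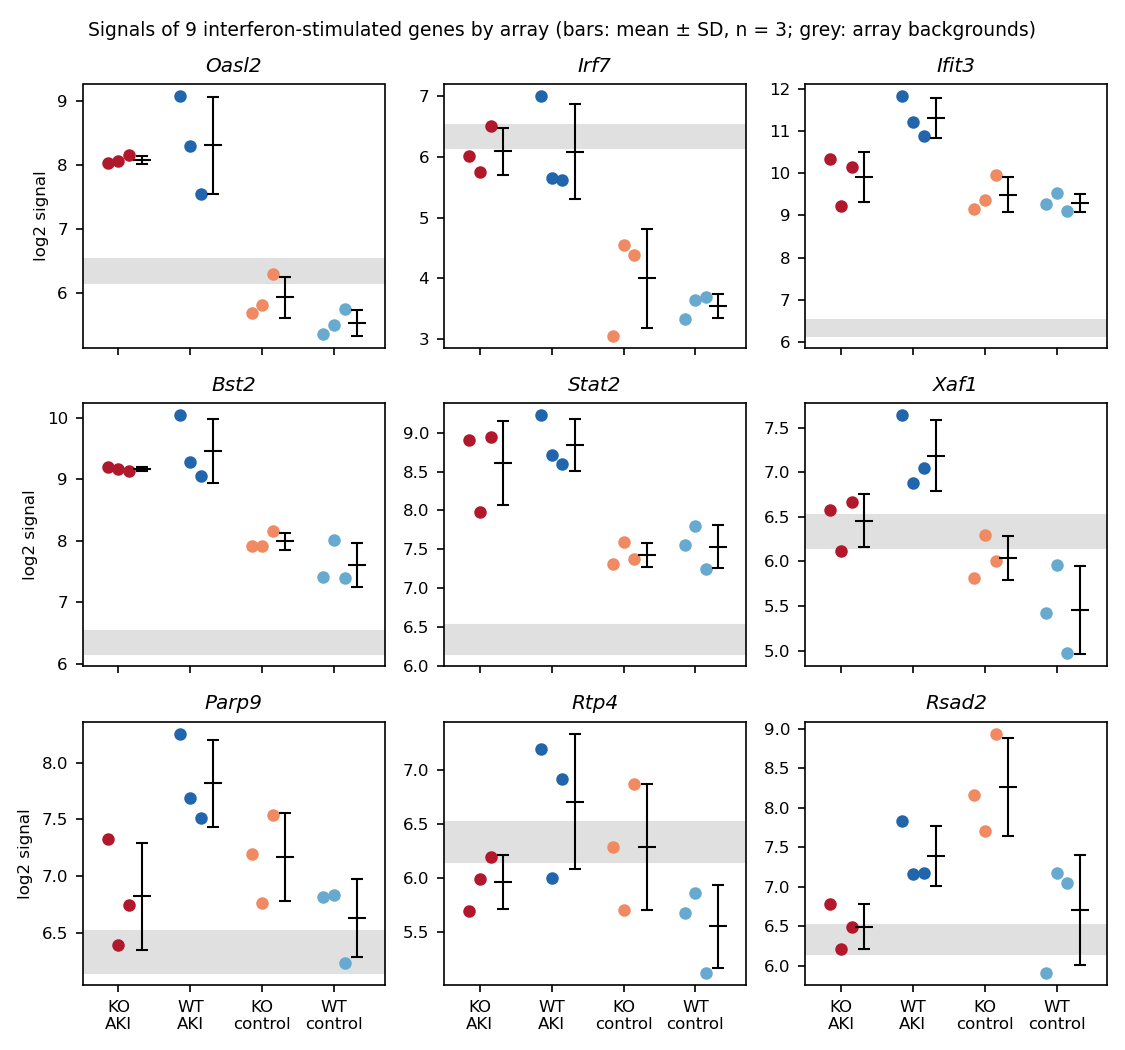
Log2 signal of 9 genes on each array (points), with mean and SD of the 3 arrays of a group (bars) and the range of array backgrounds (grey band). The WT AKI arrays of Ifit3 lie above all others, and the KO control arrays of Rsad2 lie above all KO AKI arrays.

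Rsad2 (viperin), a radical SAM enzyme that makes a chain-terminating nucleotide, was the 1 member that fell. Its log2 signals were 6.78, 6.21 and 6.49 in KO AKI and 7.83, 7.16 and 7.18 in WT AKI, against 8.16, 7.71 and 8.94 in KO control and 5.91, 7.18 and 7.04 in WT control. KO control was the high group: its arrays lay above all KO AKI and all WT control arrays. Rsad2 fell by 1.78 on the log2 scale in KO kidneys, 3.42-fold (SE 0.36, adjusted p = 0.00308, limma), and differed by 0.68 in WT kidneys (SE 0.36, adjusted p = 0.227), where the groups overlapped. KO control exceeded WT control by 1.56 (SE 0.36, adjusted p = 0.305), above 99.91% of all genes in that comparison.

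Cmpk2, a nucleotide kinase gene that stands next to Rsad2 in the RefSeq order and was on a separate list of interferon-induced genes, had signals of 7.25, 5.84 and 6.66 in KO AKI and 7.66, 7.09 and 7.15 in WT AKI, against 7.86, 8.05 and 7.82 in KO control and 7.16, 6.71 and 7.71 in WT control. It was also highest in KO control and fell by 1.33 in KO kidneys (SE 0.33, adjusted p = 0.00953, limma). In WT kidneys its difference was 0.11 (adjusted p = 0.854), and that of KO control from WT control 0.72 (adjusted p = 0.805).

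The remaining effectors held several of the widest gaps between the genotypes. Xaf1, a pro-apoptotic partner of XIAP, had signals of 6.58, 6.12 and 6.67 in KO AKI and 7.64, 6.87 and 7.04 in WT AKI, against 5.82, 6.30 and 6.00 in KO control and 5.42, 5.96 and 4.98 in WT control. It was at least 1.94-fold higher in WT AKI than in WT control (measured log2 difference 1.73, SE 0.28, adjusted p = 0.00182, limma), and its difference in KO kidneys was 0.42 (adjusted p = 0.292). The WT arrays were clearly apart, and those of KO overlapped.

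Parp9, an ADP-ribosyltransferase that works with the ubiquitin ligase DTX3L, had signals of 7.33, 6.40 and 6.75 in KO AKI and 8.25, 7.69 and 7.52 in WT AKI, against 7.2, 6.77 and 7.54 in KO control and 6.82, 6.84 and 6.24 in WT control. It rose 2.27-fold in WT kidneys (log2 difference 1.18, SE 0.29, adjusted p = 0.0181, limma; 0.0812 without WT AKI replicate 1 and 0.0778 without WT control replicate 3), and its difference in KO kidneys was -0.34 (adjusted p = 0.417). Parp14, which is separated from Parp9 by 1 gene, Dtx3l, was at least 2.37-fold higher in WT AKI than in WT control (1.54, adjusted p = 0.00473), and it rose 1.80-fold in KO kidneys (0.85, adjusted p = 0.0463; 0.158 without KO AKI replicate 1, lost on leaving out any of 8 arrays).

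Rtp4, a chaperone of G protein-coupled receptors, had signals of 5.70, 5.99 and 6.20 in KO AKI and 7.2, 6.00 and 6.92 in WT AKI, against 6.29, 5.70 and 6.87 in KO control and 5.67, 5.86 and 5.12 in WT control. It was above background on 3 of the 12 arrays. It was at least 1.39-fold higher in WT AKI than in WT control (measured log2 difference 1.16, SE 0.34, adjusted p = 0.0395, limma; 0.150 without WT AKI replicate 1, lost on leaving out any of 6 arrays), and its difference in KO kidneys was -0.32 (adjusted p = 0.518). Isg20, an RNA exonuclease, had signals of 6.22, 8.83 and 7.45 in KO AKI and 6.51, 5.93 and 5.57 in WT AKI, against 6.30, 6.37 and 6.18 in KO control and 6.37, 6.17 and 5.97 in WT control. KO AKI replicates 2 and 3 were high and replicate 1 was not, and no comparison passed the test (1.22 in KO kidneys, adjusted p = 0.0667).

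**Figure D3:**
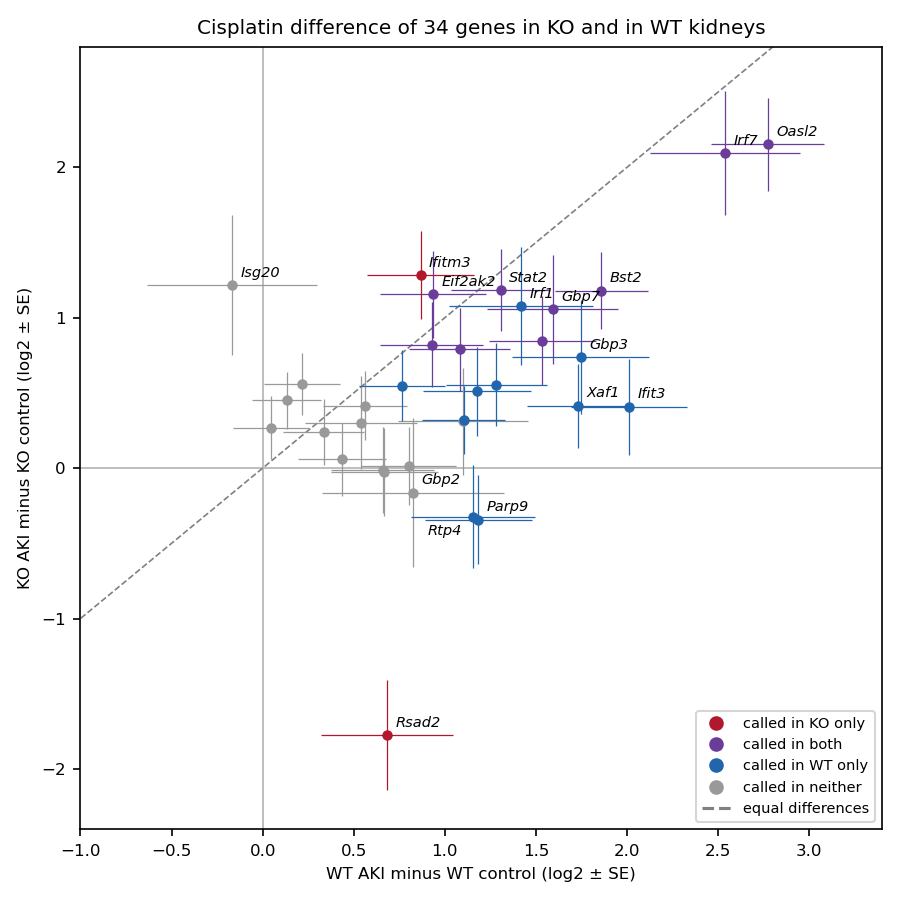
Log2 difference after cisplatin in KO kidneys (vertical axis, KO AKI minus KO control) against that in WT kidneys (horizontal axis, WT AKI minus WT control) for the 34 genes, with standard errors; colour marks the genotype in which limma called the gene. Of the 34 points, 28 lie below the line of equal differences, with Rsad2 farthest from it.

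Whether the response to cisplatin differed between the genotypes was asked by the interaction term, the KO difference minus the WT difference. It was called for 0 of the 34 genes by limma, against 0.0308% of all genes. At an unadjusted limma p under 0.05 there were 6 of the 34, against 2020 of all 19505 genes. These 6 were Ifit3, Usp18, Rsad2, Parp9, Rtp4 and Xaf1, all with a negative estimate. For Rsad2, Parp9 and Rtp4 the KO difference was negative and the WT difference positive, and the KO fall of Rsad2 was called. The estimate was negative for 28 of 34, with a median of -0.58 against -0.005 over all genes. Its largest sizes were -2.46 for Rsad2 (SE 0.51, adjusted p = 0.132), -1.60 for Ifit3 (SE 0.45, adjusted p = 0.255) and -1.53 for Parp9 (SE 0.42, adjusted p = 0.245). Of the 6 positive estimates only that of Isg20 was over 0.5 (1.39, adjusted p = 0.497). Without KO AKI replicate 1, 2 genes were called: Rsad2 (-2.60, adjusted p = 0.0299) and Parp9 (-1.78, adjusted p = 0.0430). The number of interaction calls over all genes also varied widely with the array left out, as given in the last section. The number without KO AKI replicate 1 is not given here, so these 2 calls are not read as particular to the interferon-stimulated genes. Leaving out WT AKI replicate 1 gave a median of -0.35 and leaving out KO AKI replicate 2 one of -0.39.

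After cisplatin, KO AKI and WT AKI kidneys differed in 0 of the 34 genes by limma, against 0.487% of all genes. At an unadjusted limma p under 0.05 there were 7 of the 34, against 2976 of all 19505 genes. The difference was negative for 24 and positive for 10, with a median of -0.31 against -0.009 over all genes. All 3 KO AKI arrays lay below all 3 WT AKI arrays for 6 genes (Ifit3, Isg15, Parp9, Rsad2, Usp18 and Xaf1), against 8.76% of all genes, and above them for 2 dim genes (Oas3 and Oasl1), against 8.42%. The sizes were -1.40 for Ifit3 (SE 0.32, adjusted p = 0.0650, 95% interval -2.09 to -0.72), -0.99 for Parp9 (SE 0.29, adjusted p = 0.130), -0.90 for Rsad2 (SE 0.36, adjusted p = 0.257) and -0.73 for Xaf1 (SE 0.28, adjusted p = 0.228). Isg20 differed by 1.5 (SE 0.47, adjusted p = 0.144), and Stat2, Irf7 and Irf9 by -0.23, 0.01 and -0.04.

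This count of 0 rested on KO AKI replicate 1. Without it, 5 genes were called: Isg20 was higher in KO AKI (2.14, adjusted p = 0.00443, limma), and Gbp2 (-1.67, adjusted p = 0.0139), Ifit3 (-1.62, adjusted p = 0.0140), Parp9 (-1.24, adjusted p = 0.0267) and Ifit2 (-0.87, adjusted p = 0.0498) were lower. Over all genes, the number called in this comparison also varied widely with the array left out, as given in the last section. The number over all genes without KO AKI replicate 1 is not given here. The 5 calls are therefore not set against a share of all genes and are not read as particular to these genes. Without WT AKI replicate 1 the median was -0.06, with 12 of 34 positive.

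In saline-treated mice, KO control and WT control kidneys differed in 0 of the 34 genes by limma, against 0.0513% of all genes. At an unadjusted limma p under 0.05 there were 2 of the 34 (Rsad2 and Gbp7), near the share of all genes (1203 of 19505). The difference was positive for 28 of 34, with a median of 0.20 against -0.004 over all genes. All 3 KO control arrays lay above all 3 WT control arrays for 5 genes (Gbp3, Gbp7, Parp14, Rsad2 and Trim25), against 7.25% of all genes, and below them for 0, against 7.37%. After Rsad2 the largest differences were 0.88 for Gbp7 (SE 0.36, adjusted p = 0.761), 0.73 for Rtp4 (adjusted p = 0.813) and 0.63 for Gbp3 (adjusted p = 0.893).

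**Figure D4:**
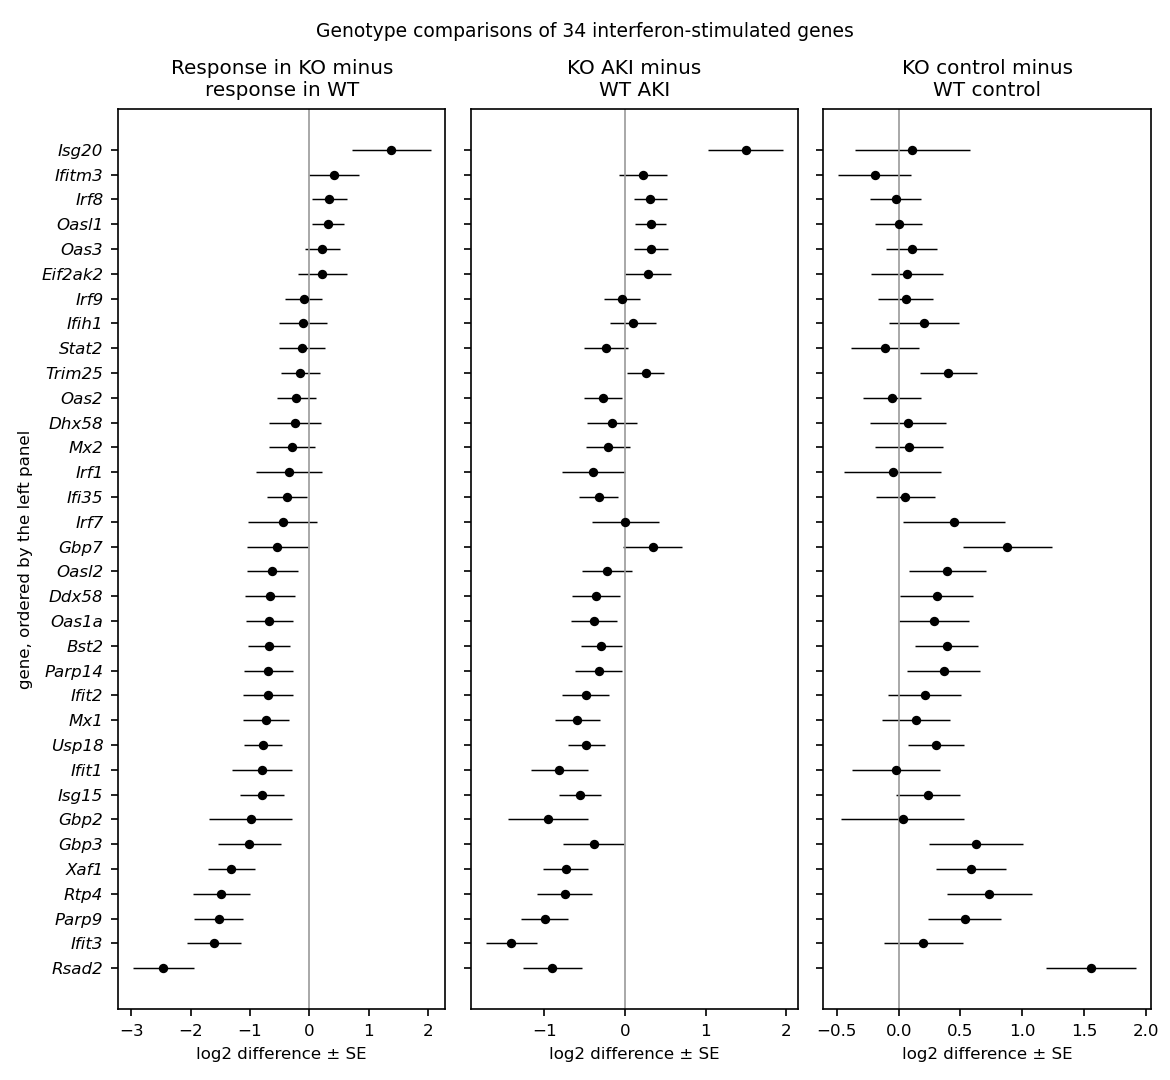
Log2 difference with its standard error for the 34 genes (rows, ordered by the left panel): the KO response minus the WT response (left), KO AKI minus WT AKI (middle) and KO control minus WT control (right). Rsad2 has the lowest interaction (-2.46) and the highest difference between the control groups (1.56).

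Replicates of a group did not sit at the same level. Set against the WT control mean, the median gene of an array stood at 0.93, 0.57 and 0.66 in KO AKI and at 1.30, 0.80 and 0.86 in WT AKI, against 0.15, 0.14 and 0.52 in KO control and -0.12, 0.15 and 0.00 in WT control. The AKI arrays lay above the control arrays in each genotype, and KO control replicate 3 was close to the lowest KO AKI array. WT AKI replicate 1 was the highest array of its group for 27 of the 34 genes, and KO AKI replicate 1 for 17. The median SD of the 34 genes was 0.37 for KO AKI (0.31 over all genes), 0.39 for WT AKI (0.24), 0.33 for KO control (0.23) and 0.25 for WT control (0.23). Isg20 had the widest spread, with an SD of 1.31 over the KO AKI arrays.

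Levels of other cell types moved with some of these results; in bulk tissue, fewer cells of a type and less RNA per cell cannot be told apart. The mean log2 signal of 13 macrophage and monocyte markers was 8.94, 7.54 and 8.12 in KO AKI and 7.91, 7.39 and 7.18 in WT AKI, against 6.48 to 6.98 in KO control and 6.83 to 7.02 in WT control. Replicate 1 was the highest array of each AKI group for these markers as it was for the interferon-stimulated genes. Of the 13, 7 rose in KO kidneys, against 15.4% of all genes. Only 1, Itgam, rose in WT kidneys, near the 8.63% of all genes that did. Itgam, the integrin chain of myeloid cells, was higher in KO AKI than in WT AKI (2.38, adjusted p = 0.0162, limma, but 0.116 without WT AKI replicate 2). Cx3cr1 was never above background. Markers of T and NK cells were above background for 1 of 12 genes on any array, of plasmacytoid dendritic cells for 2 of 4 and of B cells for 0 of 4. Of 7 neutrophil markers, 4 were never above background (Csf3r, Cxcr2, Mmp8 and Ngp). Their list averaged 4.55 to 6.36 in KO AKI and 4.50 to 4.69 in WT AKI, against 3.74 to 4.07 in KO control and 3.94 to 4.38 in WT control. KO AKI replicate 2 was highest, led by Retnlg (8.57), S100a9 (8.03) and S100a8 (7.15). Of the 7, 4 rose in KO kidneys (15.4% of all genes) and 2 in WT kidneys (8.63% of all genes). The part of these cells in the results was not tested.

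The 8 endothelial markers had a mean signal of 8.95 to 9.16 in KO AKI and 8.84 to 9.17 in WT AKI, against 9.83 to 10.17 in KO control and 8.79 to 9.45 in WT control. KO control was the high group, as it was for Rsad2 and Cmpk2. In KO kidneys 5 of the 8 fell, against 12.6% of all genes, with a median difference of -0.99. These were Kdr, Emcn, Tek, Ehd3 and Plvap, and the last 3 calls were each lost on leaving out any of 2 arrays. Between KO control and WT control 0 of 8 were called and all 8 differences were positive, with a median of 0.98. The 10 proximal tubule markers had a mean of 14.7, 9.81 and 13.6 in KO AKI and 15.3 to 15.6 in WT AKI, against 16.2 to 16.4 in KO control and 16.1 to 16.2 in WT control. Of the 10, 9 fell in KO kidneys, against 12.6% of all genes. None was called in WT kidneys, where 5.34% of all genes fell. Still, 9 of the 10 WT differences were negative, with a median of -0.53. KO AKI replicate 2, the lowest for these markers, was also the lowest KO AKI array for 18 of the 34 interferon-stimulated genes. Of the other marker lists, the injury gene Lcn2 was higher in KO AKI than in WT AKI (3.74, adjusted p = 0.0146, limma; 0.0946 without WT AKI replicate 2), the distal tubule transporter gene Slc12a3 was lower (-2.77, adjusted p = 0.00309), and the dim Klrb1c was lower in KO control than in WT control (-1.29, adjusted p = 0.0473; 0.331 without KO control replicate 1). The part of endothelial and tubule cells in the results was not tested.

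**Figure D5:**
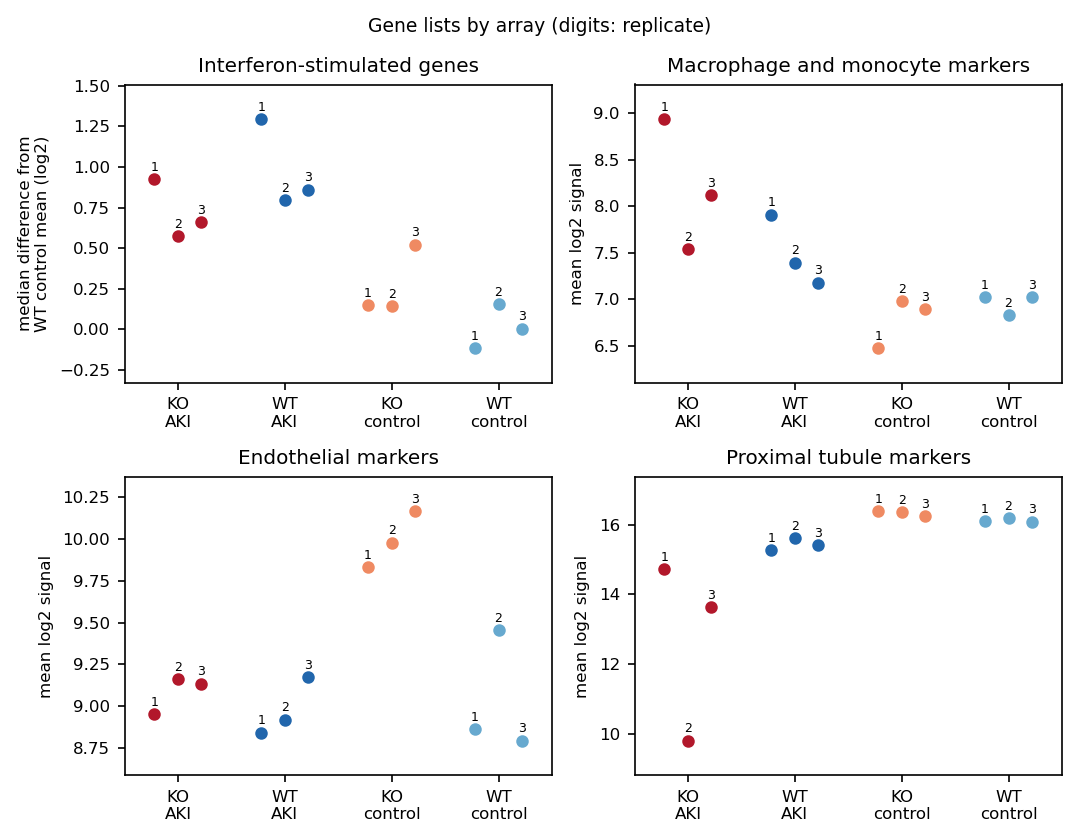
The upper left panel gives the median difference of the 34 genes from the WT control mean (log2) on each array; the other panels give the mean log2 signal of macrophage and monocyte, endothelial and proximal tubule markers. Digits are replicate numbers. KO control arrays are highest for endothelial markers and KO AKI arrays lowest for proximal tubule markers.

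The genes upstream were read from separate lists. Among 16 interferon ligands and receptors, the type I, II and III interferon genes were at or below background in both AKI groups except Ifna5, which was above background on all arrays and was not called (means of 7.63 for KO AKI, 7.55 for WT AKI, 7.24 for KO control and 7.14 for WT control). Ifnb1, which encodes interferon beta, was below background on every array and was called lower in KO AKI than in KO control (-1.03, adjusted p = 0.00287, limma). Ifngr1, the ligand-binding chain of the type II receptor, rose by 2.23 in KO kidneys (adjusted p = 5.99e-05, limma) and by 1.48 in WT kidneys (adjusted p = 0.00301). Its partner Ifngr2 rose by 1.90 in KO kidneys and by 1.04 in WT kidneys (adjusted p = 0.0239 in WT; 0.0899 without WT AKI replicate 1). Of the type I receptor chains, Ifnar1 rose by 1.31 in KO kidneys (adjusted p = 0.000749) and Ifnar2 was not called. Ifnlr1, a receptor gene below background on every array, was also called up in KO kidneys. Of the 16 genes, 4 rose and 1 fell in KO kidneys, against 15.4% and 12.6% of all genes. In WT kidneys 2 rose and 0 fell, near the 8.63% and 5.34% of all genes that did.

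Of 10 measured genes of the JAK-STAT relay and its brakes, 4 rose in KO (15.4% of all genes) and the same 4 in WT kidneys (8.63% of all genes): Stat3, Ptpn11, Jak1 and Socs3, which was below background on every array. Stat3, the factor downstream of IL-6, rose by 3.15 in KO kidneys (adjusted p = 2.87e-06, limma) and by 2.46 in WT kidneys (adjusted p = 6.54e-05). The WT call of Jak1 was lost on leaving out any of 7 arrays (0.144 without WT AKI replicate 1), that of Socs3 without WT AKI replicate 3 (0.0544) and the KO call of Jak1 without KO control replicate 1 (0.0505). Of 16 sensors and relays of nucleic acid sensing, 3 rose in KO kidneys (15.4% of all genes) and 1 in WT kidneys (8.63% of all genes), so both counts were near the background. Sting1, the adaptor of cytosolic DNA sensing, rose by 2.79 in KO (adjusted p = 6.05e-05) and by 2.33 in WT kidneys (adjusted p = 0.000717). All its control arrays lay below background, at 4.71 to 5.68, so these sizes start from dim signals.

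A further 34 measured interferon-induced genes were taken from a separate list. In KO kidneys 4 rose and 4 fell, near the 15.4% and 12.6% of all genes that did. In WT kidneys 11 rose and 0 fell, against 8.63% and 5.34% of all genes. The median difference was 0.23 in KO and 0.61 in WT kidneys. Cxcl10, a chemokine that draws T cells, had signals of 8.63, 6.63 and 6.67 in KO AKI and 9.13, 8.08 and 8.03 in WT AKI. Its control arrays, at 4.33 to 5.33 in KO control and 4.45 to 5.5 in WT control, were all below background. From these dim signals it rose by 2.31 in KO kidneys (adjusted p = 0.00421, limma) and by 3.4 in WT kidneys (adjusted p = 0.000939). Ifit3b, a paralog of Ifit3 that is close to it in the genome and so alike that the probe sets may share signal, had 9.87, 8.60 and 9.65 in KO AKI and 11.37, 10.56 and 10.11 in WT AKI, against 8.70 to 9.33 in KO control and 8.37 to 9.07 in WT control. It rose by 1.94 in WT kidneys (adjusted p = 0.00412) and was not called in KO kidneys. The 4 that fell in KO kidneys were Cmpk2, Ifit1bl1, Cxcl9 and Samd9l. Of these, Ifit1bl1 was below background on every array. Cxcl9 (-1.59, adjusted p = 0.0166, limma) was at 0.0649 without KO control replicate 2. Samd9l (-1.52, adjusted p = 0.0195, limma) was at 0.0648 without KO control replicate 3. Between KO AKI and WT AKI 0 of the 34 were called and 7 differences were positive (median -0.33), and the interaction was called for 0, with 7 positive (median -0.36).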

How the data were processed

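Kidney RNA of 12 mice was read on Clariom S arrays, 1 array per sample, in 4 groups of 3. The values that the authors deposited are log2 signals of probe sets. The processing notes name Transcriptome Analysis Console, and its version, background correction and normalization are not given in the sources used here; these steps set how low signals are compressed. The deposited table has 28846 entries, of which 19572 have 1 gene symbol and 0 have several. For 55 genes with several probe sets the highest mean was kept, which left 19505 genes. The number of arrays limits the precision, and 3 against 3 arrays cannot go below p = 0.1 in an exact permutation test.

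All groups were fitted in 1 model with limma 3.58.1 (R 4.3.3), with 8 residual and 5.6 prior degrees of freedom, and the script was tested on simulated data. Where a group had no array above background, folds are bounds that set it at the background. Any member could be named; array values were given for Stat2, Irf7, Irf9 and Irf1, for the 6 largest rises and up to 3 falls called after cisplatin, and for genes whose differences had opposite signs in the genotypes with 1 of them called; Isg15, Usp18, Eif2ak2, Gbp2, Gbp7, Ifitm3 and Isg20 were added after their values were seen. The members and lists were chosen with earlier results of these data known. RefSeq names and gene order (GRCm38.p6) were used for neighbours; the build of the array annotation is not given in the sources used here. Alternatives were quantile normalization, median centring, array weights, a background filter and trended and robust variance. Further ones were the 2 groups alone, the mean of probe sets, a replicate block and each array left out. An unpaired t-test with pooled variance and the study's threshold were also used. The paper names ANOVA for its arrays, so the t-test is not its own array test. A promoter motif search was not run, as no promoter sequences were used here.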

Additional observations from a re-analysis of the deposited data

Results flagged for a closer look

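For Rsad2, all 3 KO AKI arrays lay below the KO control mean and all 3 WT AKI arrays above the WT control mean. The fall in KO was called, whereas the WT difference of 0.68 was not (adjusted p = 0.227, limma) and the WT groups overlapped. The KO response minus the WT response was -2.46 on the log2 scale (adjusted p = 0.132, limma; 0.0299 without KO AKI replicate 1), so the difference did not pass the threshold over all arrays. Rtp4 had the same placing of arrays around the control means, with an interaction of -1.48 (adjusted p = 0.343, limma). Its KO difference of -0.32 was not called (adjusted p = 0.518), its KO groups overlapped, and none of its KO AKI arrays was above background. Groups of 3 arrays are too small for a test of single outlying arrays.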

How the results depend on the processing

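Of the 30 calls of interferon-stimulated genes after cisplatin, 18 were kept when any of the 12 arrays was left out, and none changed sign under an alternative. The calls lost were 8 with median centring, 5 with only the 2 groups compared, 5 with the replicate block and 4 with quantile normalization. Array weights lost 1, trended and robust variance 1 and the unpaired t-test 25. The cause was not tested. The replicate numbers do not pair the samples: arrays with the same number deviated together with a correlation of -0.114 to 0.088, and 3 of 12 arrays correlated best with their own number. Median centring moved the median of all genes to -0.066 in KO (0.057 as deposited) and to -0.093 in WT (0.055 as deposited).

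In KO after cisplatin, 11 interferon-stimulated genes were called, against 7 with median centring, 7 with only the 2 groups, 7 at the study's threshold (a fold over 2 and p under 0.01 before adjustment), 2 with the t-test and 2 with the t-test at that threshold; leaving out arrays gave 7 to 11. In WT, 19 were called, against 3 with the t-test and 11 with the t-test at that threshold, and leaving out arrays gave 11 to 22. At the study's threshold in limma, 2 were called between KO AKI and WT AKI, 1 between KO control and WT control and 5 in the interaction; leaving out arrays gave 0 to 5 between KO AKI and WT AKI and 0 to 2 in the interaction.

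Over all genes, 5445 were called in KO, against 3607 with only the 2 groups, 662 with the t-test, 2981 at the study's threshold and 1246 with the t-test at it. In WT 2726 were called, against 4286 with array weights, 1577 among genes above background on 3 or more arrays, 1270 with the t-test, 1556 at the study's threshold, 1170 with the t-test at it and 1469 to 4040 on leaving out arrays. Between KO AKI and WT AKI 95 were called, against 183 with array weights, 179 above background, 1 with only the 2 groups, 44 with the replicate block, 0 with the t-test (66 with it at the study's threshold), 604 at the study's threshold and 2 to 1174 on leaving out arrays. Between KO control and WT control 10 were called, against 35 with array weights, 21 with only the 2 groups, 6 with the replicate block, 101 at the study's threshold, 57 with the t-test at it and 1 to 27 on leaving out arrays. In the interaction 6 were called, against 2 with quantile normalization, 63 with array weights, 3 above background, 10 with trended and robust variance, 0 with the replicate block, 473 at the study's threshold and 0 to 337 on leaving out arrays. Dim signals limit the 8 members never above background and those above it on some arrays only, such as Irf7, Rtp4, Isg20 and Xaf1.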
